A study of Mus musculus with 33 samples.

Results

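Trem2, Tyrobp and 8 further genes that link microglia to the risk of Alzheimer's disease were followed through CA1 tissue of 5 groups of mice. The 10 genes were Trem2, Tyrobp, Syk, Plcg2, Inpp5d, Spi1, Cd33, Ms4a6d, Ms4a7 and Abi3, taken by name from 38355 genes in the aged count tables and from 40678 loci in the young FPKM tables, and all 10 were found in both. The APP mice were of a transgenic line on a C57B/6 background, in which human mutant APP is driven by the Thy1 promoter and thus in neurons. They were 8 to 10 months old and received JQ1, an inhibitor of the BET bromodomain proteins that read acetylated histones, at 50 mg per kg i.p. for 10 days (6 libraries), or vehicle with 10% DMSO for 10 days (6 libraries). WT mice of the same age received vehicle for 10 days, and 4 of 5 labelled samples had values, replicate 2 not being analysed here. Their titles call them WT, although the strain given for them is that of the transgenic line. Young mice were C57B/6JRj, 3 months old, with JQ1 at the same dose (8 libraries) or vehicle (8 libraries) for 13 days. Per the study's methods, the mice had been trained in the water maze and were killed the day after the probe test, so all groups share this training, and the CA1 region was cut out under a microscope and holds all cell types of that tissue.

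TREM2 is a receptor of microglia that binds lipids, lipoproteins and amyloid. It has no signalling tail of its own and pairs with the adaptor DAP12, encoded by Tyrobp, whose ITAM tyrosines recruit the kinase SYK, after which phospholipase C gamma 2 (Plcg2) and phosphoinositide 3-kinases act. SHIP1 (Inpp5d), a lipid phosphatase, dampens this signal, and CD33 is a sialic acid receptor. PU.1 (Spi1) is the ETS factor that directs the expression of most genes of the myeloid lineage, Ms4a6d and Ms4a7 encode four-span membrane proteins of myeloid cells, and ABI3 takes part in actin remodelling. In mouse models with amyloid plaques, microglia around plaques depend on TREM2 to take on in full what is called the disease-associated state.

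In the RefSeq annotation (GRCm38.p6, the same build as mm10), 8 start-site windows were given for 6 of the 10 genes. For 4 genes that were higher in APP mice, the 250 bases before a start site are shown, because Spi1 was among the genes that were higher with them and PU.1 binds an ETS core, GAGGAA. Capitals mark GAGGAA, or TTCCTC where it lies on the opposite strand. The Trem2 window is chr17:48346151-48346400, the Inpp5d window chr1:87620062-87620311, the downstream one of both Syk windows chr13:52596632-52596881 and the Plcg2 window chr8:117498025-117498274, all on the plus strand.

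Trem2: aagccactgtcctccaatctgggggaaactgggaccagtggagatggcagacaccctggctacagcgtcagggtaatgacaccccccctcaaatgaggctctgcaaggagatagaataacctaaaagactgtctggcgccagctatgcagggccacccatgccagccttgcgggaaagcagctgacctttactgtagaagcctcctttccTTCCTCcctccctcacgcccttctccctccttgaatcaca

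Inpp5d: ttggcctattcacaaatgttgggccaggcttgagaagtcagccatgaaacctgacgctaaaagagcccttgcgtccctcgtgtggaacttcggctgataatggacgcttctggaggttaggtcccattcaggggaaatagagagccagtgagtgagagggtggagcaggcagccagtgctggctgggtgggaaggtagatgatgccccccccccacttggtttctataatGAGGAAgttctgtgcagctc

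Syk: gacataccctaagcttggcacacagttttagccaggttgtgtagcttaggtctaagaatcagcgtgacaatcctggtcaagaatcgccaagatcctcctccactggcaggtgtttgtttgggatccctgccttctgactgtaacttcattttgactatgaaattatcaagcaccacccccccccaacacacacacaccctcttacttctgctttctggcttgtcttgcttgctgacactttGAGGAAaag

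Plcg2: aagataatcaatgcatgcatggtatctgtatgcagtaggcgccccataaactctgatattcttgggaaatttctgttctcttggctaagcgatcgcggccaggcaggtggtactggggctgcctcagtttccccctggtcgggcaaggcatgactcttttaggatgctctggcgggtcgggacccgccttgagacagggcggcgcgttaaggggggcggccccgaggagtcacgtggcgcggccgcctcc

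GAGGAA was found on either strand in 4 of the 8 windows, those of Trem2, Inpp5d, Syk and Cd33, against 23.3% of all 32851 windows of this length. It began 20 bases before the start of Inpp5d, 9 before the downstream start of Syk and 226 before that of Cd33, and in Trem2 it lay on the opposite strand 40 bases before the start. No GAGGAA lay in the upstream window of Syk, in that of Plcg2 or in those of Ms4a7. The longer string GAGGAAGT, which contains the former, was found in the Inpp5d window alone of these 8, and in 2.44% of all windows. These are matches of letters, and binding of PU.1 was not measured.

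Between 14605459 and 25339482 reads per aged library fell on genes, and 3 reads correspond to between 0.118 and 0.205 CPM (counts scaled to a common library size). The depth of the young libraries is unknown. The library labelled APP JQ1 replicate 4 went against its label. Thy1, whose promoter drives the transgene, was at 819.8 CPM there, against 1617.8 to 2342.4 in the 11 other APP libraries and 840.6 to 1070.3 in the WT libraries, and App was at 1780.8 CPM, against 2070.1 to 2715.7 and 1853.5 to 1991.6. Cst7, a gene of disease-associated microglia, had no read there, against 13.7 to 55.6 CPM in the other APP libraries. All 10 members were lower in this library than in every other APP library, and 9 of 10 were at or below the highest WT library, Tyrobp being the exception. It was kept in the fit of all libraries, and results that rest on it are given with and without it. In addition, WT vehicle replicate 4 held 3064.8 CPM of Ttr, a choroid plexus gene, against at most 114.8 in the APP libraries, and results without it are given where they differ.

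Trem2 and Tyrobp were the members with the largest difference between vehicle-treated APP and WT mice. Trem2 was at 15.39, 16.38, 16.02 and 18.88 CPM in the WT libraries, whereas in the 6 vehicle-treated APP libraries it ranged from 68.6 to 147.3 CPM with a median of 112.5. Tyrobp was at 17.98, 13.65, 17.96 and 15.08 CPM in WT mice and from 83.4 to 220.0 CPM, median 152.6, in vehicle-treated APP mice. For both genes every APP library was above every WT library. The mean of Trem2 was 114.9 ± 29.4 CPM (SD, n = 6) against 16.7 ± 1.53 (n = 4), which is 2.78 ± 0.47 on the log2 scale (SE, edgeR quasi-likelihood test, adjusted p = 0.00828). Tyrobp had a mean of 146.0 ± 47.3 CPM against 16.2 ± 2.16, and was higher by 3.17 ± 0.49 on the log2 scale (edgeR, adjusted p = 0.00828), or 9.03-fold. In bulk tissue, more cells of a type and more RNA per cell cannot be told apart.

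**Figure D1:**
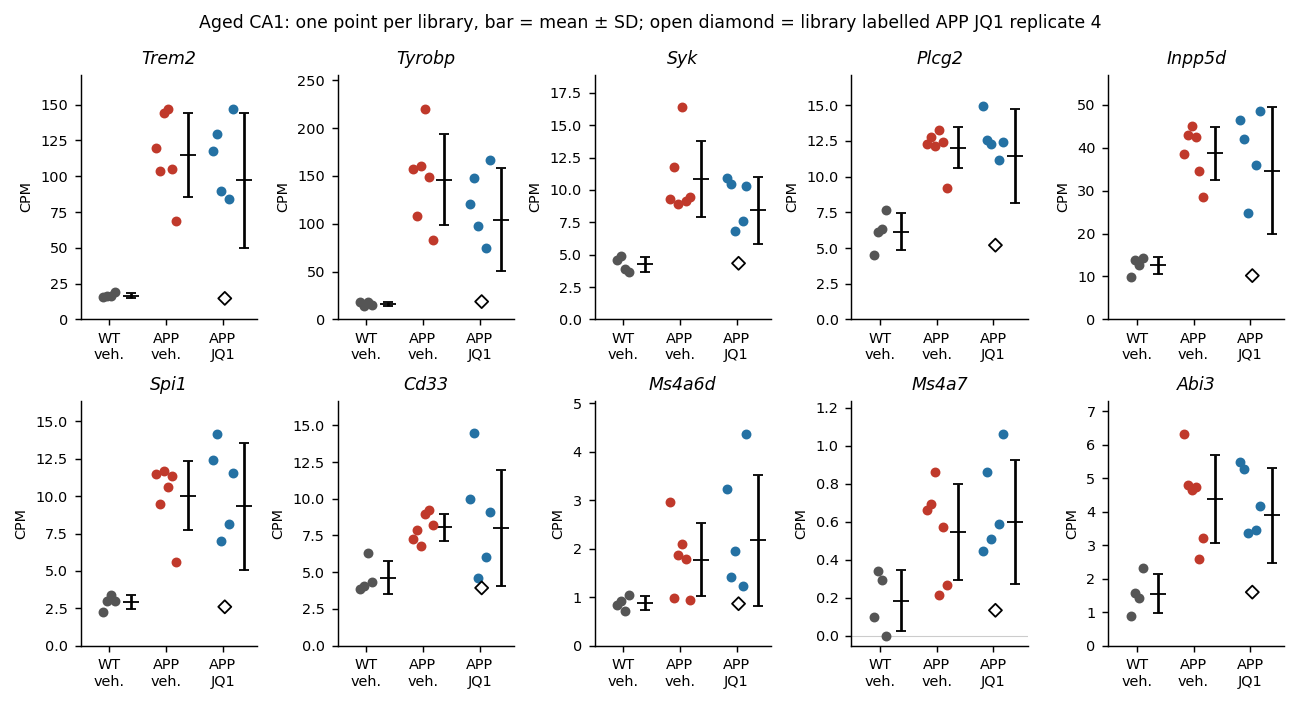
CPM of the 10 members in the aged groups (y axis, linear, from 0), with 1 point per library and the mean ± SD beside it. Trem2 and Tyrobp of vehicle-treated APP mice lie between 68.6 and 220.0 CPM and those of WT mice between 13.7 and 18.9. The open diamond is the library labelled APP JQ1 replicate 4, which lies at or below the highest WT library for 9 of 10 members.

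Of the genes that carry the signal further, Syk, the kinase that docks to the phosphorylated ITAM, was at 4.58, 4.89, 3.88 and 3.63 CPM in WT mice and from 8.88 to 16.4 CPM, median 9.36, in vehicle-treated APP mice. Plcg2 was at 4.53, 6.11, 6.32 and 7.65 CPM in WT mice and from 9.22 to 13.3 CPM, median 12.4, in vehicle-treated APP mice. Neither gene overlapped between the groups. The log2 fold change was 1.35 ± 0.24 for Syk (SE, edgeR, adjusted p = 0.00828) and 0.97 ± 0.22 for Plcg2 (edgeR, adjusted p = 0.0212).

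Inpp5d, which encodes the phosphatase SHIP1, was at 9.86, 13.8, 12.6 and 14.2 CPM in WT mice and from 28.4 to 45.0 CPM, median 40.5, in vehicle-treated APP mice, with no overlap. It rose by 1.61 ± 0.32 on the log2 scale (SE, edgeR, adjusted p = 0.0111). Spi1, the gene of PU.1, was at 2.24, 2.98, 3.42 and 3.00 CPM in WT mice and from 5.61 to 11.7 CPM, median 11.0, in vehicle-treated APP mice. The groups did not overlap, and the log2 fold change was 1.78 ± 0.35 (edgeR, adjusted p = 0.00981). Abi3, the actin regulator, was at 0.90, 1.57, 1.43 and 2.32 CPM in WT mice and from 2.59 to 6.31 CPM, median 4.70, in vehicle-treated APP mice. Its groups did not overlap either (log2 fold change 1.49 ± 0.34, edgeR, adjusted p = 0.0216). Abi3 overlaps Gngt2, Phospho1 and Zfp652 on the opposite strand, and Plcg2 likewise overlaps Gm27361. Whether the counting used strand is not given in the sources used here, so the counts of Abi3 and Plcg2 are uncertain.

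Cd33, Ms4a6d and Ms4a7 did not pass the threshold. Cd33, the sialic acid receptor, was at 3.89, 4.06, 6.28 and 4.31 CPM in WT mice and from 6.81 to 9.21 CPM, median 8.03, in vehicle-treated APP mice. All of its APP libraries were above all WT libraries, by a log2 fold change of 0.79 (95% interval 0.19 to 1.40, edgeR, adjusted p = 0.195). Ms4a6d was at 0.85, 0.93, 0.72 and 1.06 CPM in WT mice and from 0.94 to 2.96 CPM in vehicle-treated APP mice, which overlapped (log2 fold change 0.998, 95% interval 0.094 to 1.90, edgeR, adjusted p = 0.288). Ms4a7 rested on 0 to 7 reads per library in WT mice and 4 to 22 in vehicle-treated APP mice, and its groups overlapped (log2 fold change 1.55, 95% interval 0.16 to 2.94, edgeR, adjusted p = 0.282). Ms4a6d has near-identical neighbours in the Ms4a cluster, Ms4a6b and Ms4a6c, with which it may share reads.

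Counted together, 7 of 10 members were called higher in vehicle-treated APP than in WT mice, where 2.49% of the 16962 genes tested were called higher. The members' median log2 fold change was 1.52, against 0.0093 over all genes tested. In 8 of 10 members every APP library was above every WT library, as for 4.94% of all genes, and each of these had the smallest p that the exact permutation test of 6 against 4 libraries can give (0.00952, two-sided). In the fit without the library labelled APP JQ1 replicate 4, which enters through the shared spread, 7 of 10 were called higher against 3.32% of all genes. Without WT vehicle replicate 1, the calls of Plcg2, Inpp5d, Spi1 and Abi3 were lost and 3 were left, those of Trem2, Tyrobp and Syk. Without WT vehicle replicate 3 or replicate 4, those of Plcg2 and Abi3 were lost.

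JQ1 in APP mice was then compared with vehicle, the question being whether the drug moved these genes in the mice in which they were high. None of the 10 members was called in either direction by edgeR (adjusted p from 0.388 to 0.999), where 1.08% of all genes tested were called. With DESeq2 there was none either among the 9 members to which it gave an adjusted p, and none had an unadjusted p under 0.05 with either tool. Trem2 was at 14.7 CPM in the library labelled replicate 4 and from 83.8 to 147.0 CPM, median 117.8, in the other 5 JQ1-treated libraries, beside 68.6 to 147.3 CPM in vehicle-treated mice. Tyrobp was at 18.6 CPM in replicate 4 and from 74.9 to 166.3 CPM, median 120.4, in the other 5, beside 83.4 to 220.0 CPM with vehicle. The 5 libraries thus lay within the range of the vehicle group or reached below it for Tyrobp by 1 library, at 74.9 CPM.

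The log2 fold change of Trem2 was -0.24 (95% interval -1.03 to 0.54) with all libraries and -0.011 (-0.39 to 0.36) without replicate 4. That of Tyrobp was -0.48 (-1.29 to 0.32) and -0.26 (-0.75 to 0.23), respectively. Syk, at 6.83 to 10.9 CPM in the other 5 JQ1-treated libraries, had -0.36 (-0.79 to 0.077) and -0.22 (-0.60 to 0.16). Plcg2, at 11.2 to 14.9 CPM in those 5, had -0.072 with all libraries and 0.080 (-0.21 to 0.37) without replicate 4. For Inpp5d, at 24.7 to 48.5 CPM, the values were -0.16 and 0.037 (-0.29 to 0.37). Spi1, at 7.02 to 14.1 CPM, had -0.10 and 0.092 (-0.34 to 0.52), and Abi3, at 3.35 to 5.48 CPM, had -0.17 and -0.0052 (-0.54 to 0.53). The intervals without replicate 4 reached at most 0.75 in size on the log2 scale for these 7 genes, whereas the same genes differed by 0.95 to 3.16 between vehicle-treated APP and WT mice in that fit. Both comparisons share the vehicle-treated APP mice.

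Cd33 spread more widely with JQ1 than with vehicle. It was at 3.93 CPM in replicate 4 and at 9.96, 14.5, 4.62, 6.02 and 9.13 CPM in replicates 1, 2, 3, 5 and 6, beside 6.81 to 9.21 CPM with vehicle, so that JQ1-treated libraries lay on both sides of the vehicle group. Its log2 fold change was -0.0015 with all libraries and 0.14 (95% interval -0.34 to 0.62) without replicate 4. Ms4a6d was at 1.23 to 4.37 CPM in the other 5 JQ1-treated libraries (log2 fold change 0.46, -0.28 to 1.20), and Ms4a7 at 0.44 to 1.06 CPM (0.32, -0.75 to 1.40), both without replicate 4. For the Ms4a genes the intervals reach beyond 1, so a difference of that size was neither called nor bounded. These genes had 2 to 80 reads per library in JQ1-treated mice, and Ms4a6d spread from 1.23 to 4.37 CPM between libraries.

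**Figure D2:**
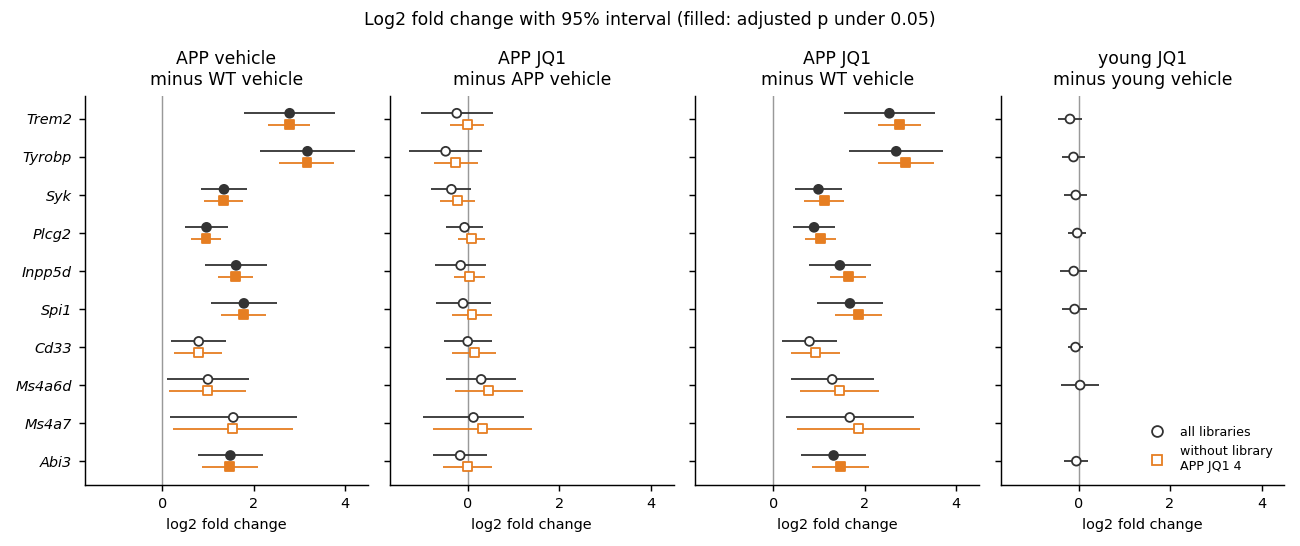
Log2 fold changes (x axis) of the members with 95% intervals in the 4 comparisons; black circles are all libraries, orange squares the fit without the library labelled APP JQ1 replicate 4, and filled symbols have an adjusted p under 0.05. Against WT mice, 7 members are filled in both APP groups, and in APP JQ1 minus APP vehicle and in young mice none is filled.

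JQ1-treated APP mice were also set against vehicle-treated WT mice. Without replicate 4, Trem2 was 2.76 ± 0.22 higher on the log2 scale (SE, edgeR, adjusted p = 1.1e-05) and Tyrobp 2.90 ± 0.28 (edgeR, adjusted p = 2.96e-05). Inpp5d (1.64), Spi1 (1.86), Abi3 (1.47), Syk (1.11) and Plcg2 (1.03) rose as well, so that 7 of 10 were called higher against 3.6% of all genes tested. In 9 of 10 members the 5 libraries lay above all WT libraries, as for 5.88% of all genes, the exception being Cd33 (0.92, edgeR, adjusted p = 0.0552). With all 6 libraries, 7 of 10 were likewise called higher, Trem2 by 2.54 ± 0.46 (edgeR, adjusted p = 0.0148) and Tyrobp by 2.69 ± 0.48 (edgeR, adjusted p = 0.0145), against 1.93% of all genes. Tyrobp alone did not overlap between the groups then, and 2.55% of all genes were higher without overlap. In a fit of these 2 groups alone, only Tyrobp was called (edgeR, adjusted p = 0.0496), with Trem2 at 2.54 (edgeR, adjusted p = 0.0589). Without WT vehicle replicate 3, 4 or 5 no member was called, without WT vehicle replicate 1 only Tyrobp was, and without APP JQ1 replicate 1, 2 or 6 only Trem2, Tyrobp and Spi1 were. Leaving out APP vehicle replicate 2, which enters through the shared spread, left 4. This comparison shares the WT mice with the first and the JQ1-treated mice with the second.

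Per length of the gene's exons, as RPKM (CPM divided by the exonic length in kilobases), Tyrobp, Trem2 and Inpp5d were the highest members, in this order, and Ms4a7 the lowest in each aged group. The exonic length used was 4946 bases for Trem2 and 667 for Tyrobp, whose mean CPM in vehicle-treated APP mice were 114.9 and 146.0. The order of the members and the size of the ratio of Trem2 to Tyrobp therefore depend on these lengths. Whether the transcripts present have the lengths used was not tested. In vehicle-treated APP mice Tyrobp was at 218.9 ± 70.9 RPKM (SD, n = 6), Trem2 at 23.2 ± 5.94, Inpp5d at 5.09 ± 0.82, Spi1 at 3.73 ± 0.86 and Plcg2 at 2.80 ± 0.33. Syk, Abi3, Cd33 and Ms4a6d followed between 1.02 and 1.16 RPKM and did not differ beyond their spread, and Ms4a7 was last at 0.122 ± 0.057. In WT mice Tyrobp was at 24.2 ± 3.24 RPKM (n = 4) and Trem2 at 3.37 ± 0.31, and Plcg2 (1.43 ± 0.30) and Inpp5d (1.66 ± 0.26) lay within each other's spread. The ratio of Trem2 to Tyrobp in RPKM was 0.109 ± 0.015 in vehicle-treated APP mice, 0.125 ± 0.015 in JQ1-treated APP mice and 0.142 ± 0.028 in WT mice, with ranges of 0.0903 to 0.130, 0.106 to 0.151 and 0.115 to 0.169. These ranges overlapped between all groups. The lowest JQ1-treated value, 0.106, was that of the library labelled APP JQ1 replicate 4. Without it the JQ1-treated libraries ranged from 0.118 to 0.151 and still overlapped both other groups.

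**Figure D3:**
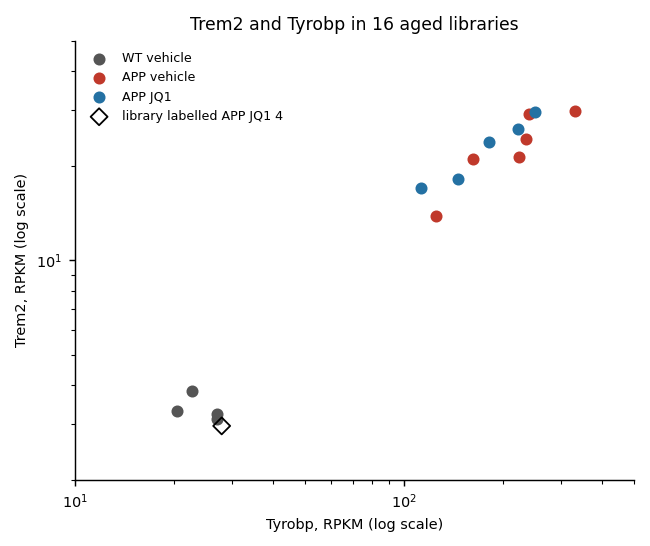
Trem2 against Tyrobp in the 16 aged libraries, both in RPKM on log axes, with 1 point per library. WT libraries and the open diamond, the library labelled APP JQ1 replicate 4, form the lower left group, and the other 11 APP libraries the upper right one. The ratio of Trem2 to Tyrobp ranges from 0.0903 to 0.169.

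The genes around TREM2 and DAP12 were read from lists. Of 24 partners in the signal, 13 of 24 tested rose in vehicle-treated APP against WT mice and none fell, with a median log2 fold change of 1.26 against 0.0093 over all genes tested. The largest changes were in Fgr (3.55 ± 0.49, SE), a kinase of the SRC family, in Hcst (3.23 ± 0.71), which encodes the sister adaptor DAP10, and in Lat2 (2.20 ± 0.48), an adaptor phosphorylated by SYK. Of the brakes on ITAM signalling, 4 of 9 tested rose, with a median of 0.61. These were Cd22 (5.22 ± 0.83) and Cd300lf (3.46 ± 0.65), both receptors with ITIMs, Ptpn6 (2.05 ± 0.38), the phosphatase SHP-1, and Inppl1 (0.61 ± 0.15), the phosphatase SHIP2.

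Of the receptors that couple to DAP12 or act beside it, 8 of 11 tested rose (median 1.35). The largest changes were in Clec7a (5.62 ± 0.92), the receptor dectin-1, Cd300lb (5.24 ± 1.20) and Treml2 (2.94 ± 0.52). Hcst, Cd22 and Cd300lb were at means of 0.0789, 0.0827 and 0.0106 CPM in WT mice, below what 3 reads correspond to in any library, so that the sizes of their fold changes depend on the fit. Of the other Ms4a genes, 2 passed the filter on low counts, and Ms4a6c rose from 0.39 ± 0.22 to 1.33 ± 0.65 CPM (log2 fold change 1.75 ± 0.44, edgeR, adjusted p = 0.0391). Among partners and targets of PU.1, 12 of 16 rose (median 1.42), led by Cd68 (2.57 ± 0.46), a lysosomal protein of macrophages, Irf8 (2.33 ± 0.38), a factor that binds DNA together with PU.1, and Csf3r (2.20 ± 0.41).

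Of 18 further Alzheimer risk genes with microglial expression, 5 rose, with a median log2 fold change of 0.32. These were Ctsh (1.61 ± 0.32), a cathepsin, Rin3 (1.41 ± 0.26), Grn (1.22 ± 0.24), the gene of progranulin, Apoe (1.04 ± 0.19), an apolipoprotein that TREM2 binds, and Abca1 (0.74 ± 0.19), a lipid exporter. Apoe was also the one gene of 8 ligands and shedding proteases of TREM2 to pass the threshold.

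In JQ1-treated against vehicle-treated APP mice, 1 gene of all these lists was called by edgeR, where 1.08% of all genes tested were called. Pik3cd, the catalytic subunit delta of the phosphoinositide 3-kinase, fell by 0.42 ± 0.090 on the log2 scale (SE, edgeR, adjusted p = 0.0309), from 42.7 ± 2.87 to 31.9 ± 3.49 CPM. Without replicate 4 it was at -0.38 (edgeR, adjusted p = 0.0878). DESeq2 called more genes in this comparison, 749 of 27729 with a p-value, not all of which had an adjusted p. Among these lists, DESeq2 called Pik3cd (-0.41, adjusted p = 0.0020) and also Abca7 (-0.44, adjusted p = 0.0257) and Bin1 (-0.15, adjusted p = 0.0484) of the further risk genes. Adam10 (0.28, DESeq2, adjusted p = 0.0163), a protease that sheds TREM2, was called too. The medians of the lists in this comparison were -0.25 for partners in the signal, -0.27 for brakes, -0.099 for receptors and -0.25 for partners and targets of PU.1. Without replicate 4 they were -0.052, -0.054, 0.070 and -0.094, against 0.0059 over all genes.

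Among markers of cell types, those called by edgeR in vehicle-treated APP against WT mice were genes of microglia and of astrocytes. Of 20 genes of disease-associated microglia, 16 rose in vehicle-treated APP mice against WT mice (median 2.20). Cst7 was at 36.8 ± 13.9 CPM against 0.103 ± 0.108, Itgax at 25.3 ± 10.7 against 0.405 ± 0.086 and Clec7a at 15.3 ± 5.39 against 0.303 ± 0.216. Of 15 genes of homeostatic microglia, 8 rose (median 0.97), among them Olfml3 (1.33 ± 0.27) and Csf1r (1.28 ± 0.26). P2ry12 (0.26 ± 0.14, edgeR, adjusted p = 0.409) and Tmem119 (0.46 ± 0.16, edgeR, adjusted p = 0.171) did not pass. The summed level of the homeostatic list ranged from 1826.3 to 2105.1 CPM in WT mice, from 2623.6 to 3908.7 CPM in vehicle-treated APP mice and from 2132.7 to 4282.9 CPM in JQ1-treated ones, the lowest of these being replicate 4. None of 8 genes tested of perivascular macrophages, none of 4 of monocytes and neutrophils, none of 8 of oligodendrocytes and none of 7 of neurons was called, and no lymphocyte gene passed the filter. Of 8 astrocyte genes, Gfap (3.18 ± 0.58) and Sox9 (0.78 ± 0.16) rose. In JQ1-treated against vehicle-treated APP mice none of the 20 and none of the 15 was called by edgeR, and DESeq2 called none of the 20 and Fcrls (-1.64, adjusted p = 0.00555) of the 15, with medians of -0.30 and 0.012 with all libraries and of -0.15 and 0.070 without replicate 4. The part of the number of microglia in the members' differences was not tested.

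Set against the homeostatic list, the members came apart. For each library the mean log2(CPM + 0.5) of the 15 homeostatic genes was subtracted from that of the member. Trem2 was then at 0.92 ± 0.24 in vehicle-treated APP mice and at -0.97 ± 0.092 in WT mice (SD, n = 6 and 4), and Tyrobp at 1.25 ± 0.30 and -1.01 ± 0.20. Inpp5d (-0.61 ± 0.20 against -1.36 ± 0.20) and Spi1 (-2.52 ± 0.29 against -3.31 ± 0.17) were also higher without overlap. These 4 of 10 members were higher without overlap on this scale, as were 0.855% of all genes tested. The other 6 overlapped, with differences of 0.43 for Abi3, 0.41 for Syk, 0.11 for Plcg2, -0.067 for Cd33, -0.17 for Ms4a6d and -0.22 for Ms4a7. The sign of the Ms4a genes depends on the added 0.5, since their fitted log2 fold changes lie 0.14 and 0.69 above the mean of 0.86 over the homeostatic genes. The homeostatic mean itself was 0.82 higher in vehicle-treated APP than in WT mice, whereas the median log2 fold change over all genes tested was 0.0093. Subtracting this mean therefore lowers most genes in APP mice. The share of 0.855% is small by construction, beside 4.94% without the subtraction, and is no yardstick for genes of microglia. Between the 5 other JQ1-treated and the vehicle-treated APP libraries all 10 members overlapped on this scale, with differences of 0.0026 for Trem2 and -0.25 for Tyrobp.

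**Figure D4:**
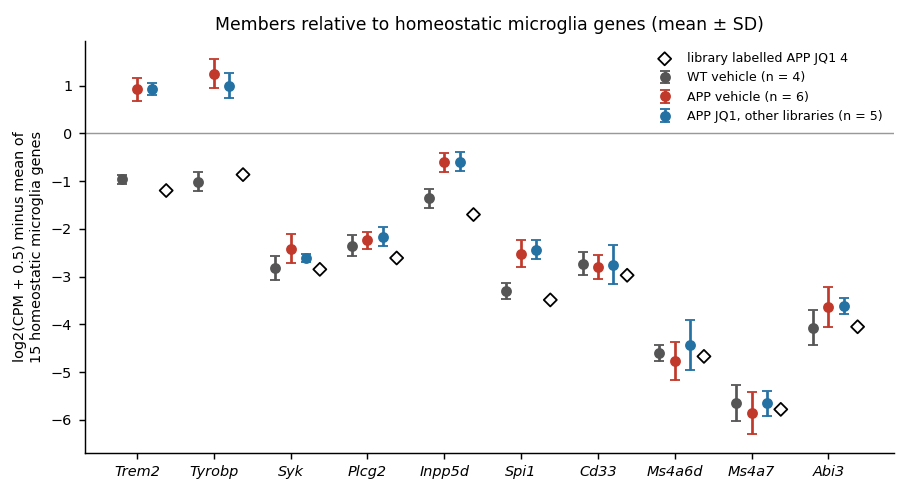
Members relative to the mean of 15 homeostatic microglia genes (y axis, difference in log2(CPM + 0.5)), as mean ± SD of each aged group, with the library labelled APP JQ1 replicate 4 as an open diamond. Levels are to be compared within a gene. Trem2 lies at 0.92 in vehicle-treated APP and at -0.97 in WT mice, and Cd33 differs by -0.067 between them.

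Over the 16 aged libraries, the genes most like Trem2 in log2 CPM included Cst7 (Pearson r = 0.990), Cd68 (0.988), Mpeg1 (0.988) and Tyrobp (0.987). Those most like Tyrobp were Cd52 (0.988), Trem2 (0.987), Cst7 (0.987), Lyz2 (0.986) and Ctss (0.983). These libraries share groups, and the library labelled APP JQ1 replicate 4 lies far from the rest of its group. After the group means were removed and without that library, the 5 closest to Trem2 included Nr1h3 (0.932), Cd300c2 (0.927), Ctss (0.910) and Ptpn6 (0.908), and those closest to Tyrobp were Arl11 (0.959), Cd52 (0.941), Cd83 (0.908), Srgn (0.898) and Cd300c2 (0.894), over 15 libraries. With that library and the group means removed, the 5 closest to Trem2 included Cst7 (0.983), Ptpn6, Itgax and Tyrobp (0.965), and those closest to Tyrobp were Arl11 (0.978), Cd52, Trem2, Lyz2 and Ccl6 (0.957).

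For the other members, the closest gene as measured was Dock2 for Syk (0.959), Cxcl16 for Plcg2 (0.976), Cd180 for Inpp5d (0.993), Cd68 for Spi1 (0.988), Fxyd5 for Cd33 (0.945), Tpm4 for Ms4a6d (0.915), Adgrg5 for Ms4a7 (0.890) and Lgi4 for Abi3 (0.954). With the group means removed and all 16 libraries kept it was Ddx43 for Syk (0.917), Ctsz for Spi1 (0.976) and Ttc8 for Ms4a7 (0.904), and it was the gene already named for Plcg2, Inpp5d, Cd33, Ms4a6d and Abi3. Without replicate 4 it was Castor1 for Plcg2 (0.848), Rack1 for Ms4a6d (0.932), Slc27a3 for Abi3 (0.884) and Cd68 for Spi1 (0.940), and it remained Ddx43 for Syk, Cd180 for Inpp5d, Fxyd5 for Cd33 and Ttc8 for Ms4a7. Among the 45 pairs of members, r ranged from 0.497 (Cd33 and Ms4a6d) to 0.987 (Trem2 and Tyrobp) as measured, and from -0.0973 to 0.876, again highest for Trem2 and Tyrobp, with the group means removed and without replicate 4. These correlations are descriptions over libraries that share depth and tissue composition.

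In young mice the members were measured as FPKM, a level per length made by other software, which was not compared with the aged values. Tyrobp ranged from 21.5 to 39.2 FPKM with vehicle (median 26.1) and from 19.8 to 28.05 with JQ1 (median 25.7). Trem2 ranged from 7.31 to 9.46 FPKM with vehicle (median 8.265) and from 4.33 to 9.34 with JQ1 (median 7.36). For both genes the groups overlapped, and the lowest value was in a JQ1-treated library. The log2 fold change on the log2(FPKM + 0.1) scale was -0.19 (95% interval -0.45 to 0.070) for Trem2 and -0.11 (-0.36 to 0.14) for Tyrobp.

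Inpp5d was at 4.18 ± 0.89 FPKM with vehicle and 3.89 ± 0.83 with JQ1 (SD, n = 8 each), Spi1 at 3.54 ± 0.58 and 3.35 ± 0.62, Cd33 at 2.20 ± 0.18 and 2.10 ± 0.28, and Syk at 1.14 ± 0.12 and 1.10 ± 0.21. Plcg2 was at 0.928 ± 0.109 FPKM with vehicle and 0.902 ± 0.051 with JQ1, and Ms4a6d at 1.04 ± 0.36 and 1.04 ± 0.25. Abi3 has a pair of loci of that name over the same span in these tables, at 2.84 ± 0.49 and 2.75 ± 0.58 FPKM and at 0.514 ± 0.194 and 0.489 ± 0.186 FPKM, so that its level is uncertain. Ms4a7, at 0.174 to 0.874 FPKM, did not pass the filter of 0.5 FPKM in 8 of 16 libraries. Of the 9 members tested, none was called (limma, adjusted p from 0.981 to 0.998), where 0.00543% of 18420 loci, that is 1 locus, were called. None had an unadjusted p under 0.05, and log2 fold changes ranged from -0.19 to 0.033. Exact permutation tests of FPKM gave p from 0.195 to 0.972 (two-sided). Of the partner lists, no gene was called in young mice either, with 22 partners, 5 brakes and 6 receptors tested. The smallest adjusted p in limma was 0.981, and the genes of smallest unadjusted p were Arpc1b (log2 fold change -0.20) and Lyn (-0.12) among partners, Ptpn6 (0.53) and Dok1 (0.17) among brakes, and Clec5a (0.39) and Siglech (-0.075) among receptors.

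**Figure D5:**
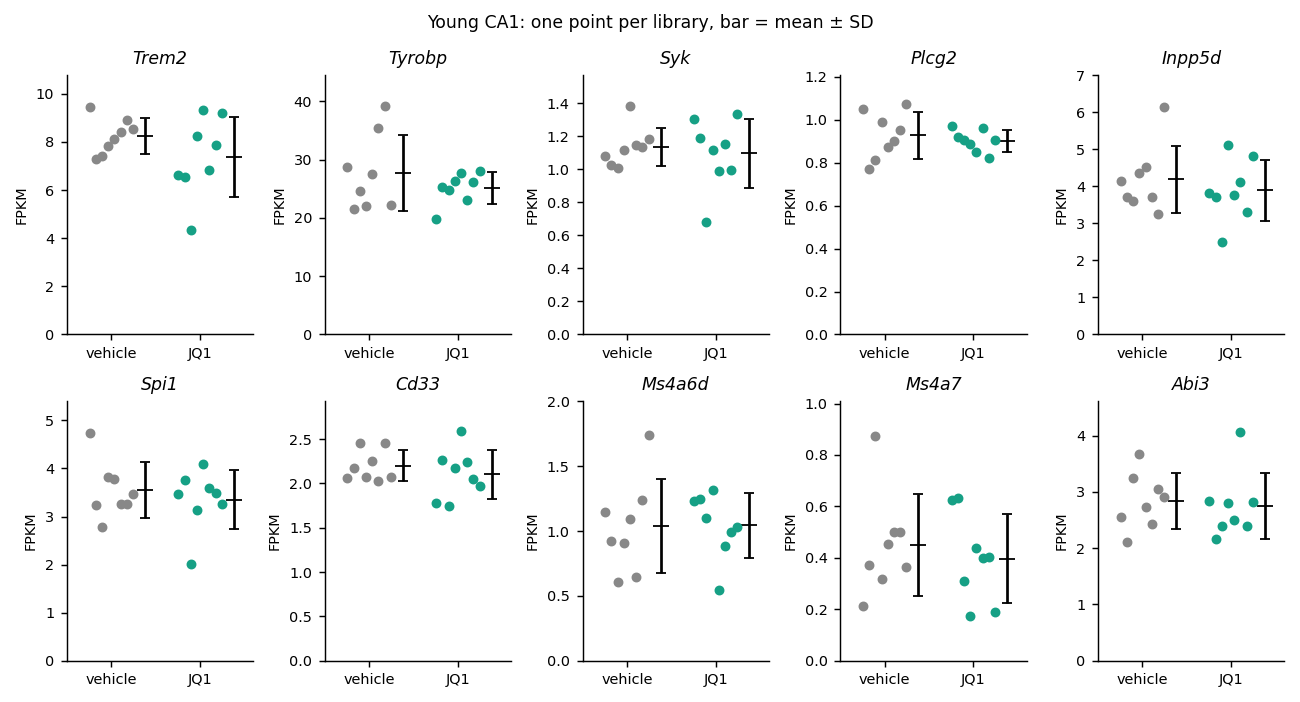
FPKM of the 10 members in the young groups (y axis, linear, from 0), with 1 point per library and the mean ± SD beside it. For all 10 genes, JQ1-treated and vehicle-treated mice overlap, Trem2 lying between 4.33 and 9.46 FPKM.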

How the data were processed

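RNA of CA1 tissue was sequenced on a HiSeq machine. For aged mice, the deposited values are raw counts per gene, which the authors made with STAR on mm10 (at most 2 mismatches) and htseq. For young mice, the deposited values are FPKM from cufflinks and cuffdiff, which the authors normalized to length and depth. TopHat and CASAVA version 1.8.2 stand in the submitters' processing notes without their role. Gene models were GENCODE M21, on GRCm38, the build of mm10, and older names of loci were matched through RefSeq synonyms.

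Counts were tested with edgeR 4.0.16 (TMM, filterByExpr, robust quasi-likelihood test, 3 groups in 1 fit, 16962 genes), and log2(FPKM + 0.1) with limma 3.58.1 (trend and robust; 18420 loci with at least 0.5 FPKM in at least 8 of 16 libraries). Adjusted p-values are Benjamini-Hochberg over all features tested, with a threshold of 0.05. Single members were also tested with exact permutation tests (scipy 1.17.1), whose smallest p is 0.00952 for 6 against 4, 0.00216 for 6 against 6 and 0.000155 for 8 against 8 libraries. CPM use TMM library sizes, and intervals are 95%. The main edgeR and limma fits and the DESeq2 fit were tested on simulated data, and the other alternatives were not. No pair of libraries held identical values. The labels number the replicates without saying from which animals they came, so p-values measure the spread between libraries. Libraries were grouped by their labels, and no batch is labelled.

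The members and lists were chosen with earlier results of these data known. All members are named, and from each list the genes past the threshold, or the 3 with the largest changes where more than 6 passed, or up to 2 with the smallest p where none did, plus the 5 or 1 genes of most similar pattern. P2ry12, Tmem119, Thy1, App and Ttr were named in addition, and some genes that the rule would name are not reported here. Of the lists, Lilrb4a, Ms4a14 and Ms4a4a were not found by symbol in the aged tables. In the young tables, 23 of 24 partners in the signal, 9 of 11 brakes and 13 of 16 partners and targets of PU.1 were found. So were 13 of 15 other Ms4a genes, 14 of 15 homeostatic, 18 of 20 disease-associated and 7 of 8 oligodendrocyte genes. Alternatives were DESeq2 1.42.0, RLE size factors, other filters, 2 groups alone, the replicate number as a block, GC content and length (splines with 5 degrees of freedom), 1 surrogate variable from sva 3.50.0, leaving out each library, and for FPKM pseudocounts of 0.01 and 1 and rescaling. The block without the library labelled APP JQ1 replicate 4 and the fitted changes relative to the homeostatic list were chosen later, with the values known.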

Additional observations from a re-analysis of the deposited data

Results flagged for a closer look

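In 6 of 52 combinations of a gene locus and a group of 4 to 8 libraries, 1 library stood apart from the others of its group by Dixon's criterion, which chance meets in about 1 in 20 groups. In vehicle-treated APP mice, replicate 6 was the lowest for Plcg2 (9.22 CPM) and for Spi1 (5.61 CPM). This library also had the lowest Trem2 (68.6 CPM), Tyrobp (83.4 CPM) and Inpp5d (28.4 CPM) of its group, all above the WT libraries. In young mice, vehicle replicate 8 was the highest for Inpp5d (6.13 FPKM), vehicle replicate 3 the highest for Ms4a7 (0.874 FPKM), JQ1 replicate 3 the lowest for Spi1 (2.01 FPKM) and JQ1 replicate 6 the highest for Abi3 (4.06 FPKM). The library labelled APP JQ1 replicate 4 was the lowest of its group for all 10 members without meeting the criterion for any.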

How the results depend on the processing

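The number of members called in vehicle-treated APP against WT mice was 7, and 7 or 8 under DESeq2, RLE size factors, other filters, 2 groups alone, the GC and length correction and 1 surrogate variable. With the replicate number as a block it was 0, with the block and the correction 0, and with the block and without the library labelled APP JQ1 replicate 4 it was 7. Leaving out 1 library at a time gave 3 to 7. In JQ1-treated APP against WT mice, where 7 were called, 2 groups alone gave 1, the block 0, the block with the correction 0, the block without replicate 4 gave 6, the other alternatives 5 to 7, and leaving out 1 library 0 to 7. For JQ1 against vehicle, in APP and in young mice, it was 0 under all alternatives, with 1 library left out from 0 to 0. The cause of these shifts was not tested. Between aged libraries of the same replicate number, the mean correlation of deviations from the group means was -0.0226 (14 pairs, -0.471 to 0.342). Between aged libraries of different number it was 0.0111 (70 pairs, -0.447 to 0.531). In young mice the means were 0.0264 (8 pairs) and -0.0037 (56 pairs). Values above 0.1 occurred in 4 of 14 aged and 1 of 8 young pairs of the same number, and in 26 of 70 and 0 of 56 of different number. Whether the numbers mark pairs or a batch cannot be told from so few pairs.

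Among the log2 fold changes of single members, 356 values kept direction and side of the threshold, 47 kept the direction without the call, 1 gained the call (Cd33 with 2 groups alone) and 31 changed sign, all of these for JQ1 against vehicle, where none was called. In APP mice, the GC and length correction gave 0.060 for Plcg2, 0.11 for Spi1, -0.022 for Ms4a7 and 0.092 for Abi3, and together with the block 0.043, 0.049, -0.047 and 0.066. With 1 surrogate variable Plcg2 was at 0.063, Inpp5d at 0.038, Spi1 at 0.083, Cd33 at 0.18 and Abi3 at 0.050. Cd33 was at 0.0047 with DESeq2, 0.0039 with RLE size factors and 0.0023 with at least 10 counts in every library. The block without replicate 4 gave 0.040 for Trem2, 0.11 for Plcg2, 0.045 for Inpp5d, 0.13 for Spi1 and 0.11 for Cd33. With 1 library left out, Plcg2 ranged from -0.16 to 0.080, Inpp5d from -0.27 to 0.037, Spi1 from -0.26 to 0.092 and Cd33 from -0.25 to 0.14 (each highest without APP JQ1 replicate 4), and Ms4a6d from -0.020 to 0.50 and Ms4a7 from -0.10 to 0.32 (each lowest without replicate 6). In young mice Syk ranged from -0.10 to 0.021, Spi1 from -0.13 to 0.0097, Ms4a6d from -0.057 to 0.15 and Abi3 from -0.13 to 0.0042.

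Over all genes, 436 were called in vehicle-treated APP against WT mice, 184 in JQ1-treated against vehicle-treated APP mice, 349 in JQ1-treated APP against WT mice and 1 in young mice. In the first 3 comparisons the counts were 792, 749 and 790 with DESeq2, 679, 151 and 227 with 2 groups alone, 35, 87 and 21 with the block, 452, 43 and 462 with the GC and length correction, 70, 36 and 61 with both, 372, 161 and 607 with 1 surrogate variable, 484, 30 and 463 with the block and without replicate 4, and 154 to 601, 65 to 446 and 11 to 651 with 1 library left out. In young mice they were 0 without a filter and 0 with the block, and 0 to 2 with 1 library left out. Ms4a7 had 0 to 22 and Ms4a6d 13 to 80 reads per aged library, and the part of read depth in their wide intervals was not tested. Relative to the homeostatic list, Ms4a6d was at 0.14 and Ms4a7 at 0.69 by fitted changes, which was chosen after seeing the data.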

Other observations

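In JQ1-treated against vehicle-treated APP mice, no gene of the homeostatic list, of the other Alzheimer risk genes or of the TREM2 ligands and proteases was called by edgeR, which called 1.08% of all genes tested. DESeq2, which called 749 of 27729 genes with a p-value, not all of which had an adjusted p, called Fcrls, Abca7, Adam10 and Bin1. The smallest p in these lists were those of Fcrls, a microglial Fc receptor-like gene, at 4.84 ± 1.60 against 15.2 ± 11.5 CPM (SD, n = 6 each), a difference of -1.64 on the log2 scale (edgeR, adjusted p = 0.0552, and -1.74 with 0.0984 without replicate 4), of Abca7, a lipid transporter, with -0.44 (edgeR, adjusted p = 0.0790), and of Adam10, a protease that sheds TREM2 and cleaves APP, with 0.27 (edgeR, adjusted p = 0.0737). Perivascular and border macrophage genes had a median of 0.21 there over 8 genes tested, and F13a1 had the smallest p among them (0.58, edgeR, adjusted p = 0.285).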
